A study of Homo sapiens with 9 samples.

Results

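The Dishevelled and beta-catenin core of the Wnt pathway was taken as 10 named genes: the Dishevelled genes *DVL1*, *DVL2* and *DVL3*, the destruction complex genes *AXIN1*, *APC* and *GSK3B*, *CTNNB1*, which encodes beta-catenin, and the nuclear partners *TCF7L2*, *BCL9* and *BCL9L*. They were listed by symbol and not by a cutoff on their values, but with earlier results of these data known. They came from 27902 genes whose RefSeq transcripts were summed, and all 10 were among the 12509 genes tested. RNA-seq was performed on polyadenylated RNA of DU145, an established human prostate cancer cell line, in 9 libraries labelled as wild type. Of these, 3 came from cells expressing a scrambled shRNA (scramble), 3 from cells expressing *FZD6* shRNA1 and 3 from cells expressing *FZD6* shRNA2. The study's methods describe lentiviral pLKO.1 vectors for constitutive hairpins. All groups therefore share 1 cell line and a viral vector, and no untransduced cells were included. Nothing in the labels says that the libraries of a group came from separate cultures, so p-values measure the spread between these libraries, which may be technical. Where both hairpins were taken as 1 knockdown group, that spread also holds the difference between the hairpins.

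In the Wnt pathway, Frizzled receptors such as FZD6 pass the signal of a Wnt ligand to Dishevelled proteins inside the cell. Without a canonical signal, a complex built on AXIN1 and APC lets the kinase GSK3B mark beta-catenin for degradation. When Dishevelled draws AXIN1 to the membrane, beta-catenin escapes, enters the nucleus and binds TCF7L2 and its relatives on DNA, where BCL9 and BCL9L link it to further activators. FZD6 is mostly described as a noncanonical receptor, whose signal goes through Dishevelled without beta-catenin.

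*FZD6* itself was the check of the labels. In scramble cells it was at 20.9, 20.5 and 20.0 FPKM, a density of read fragments scaled to transcript length and library depth. With shRNA1 it was at 9.47, 10.2 and 9.80 FPKM, and with shRNA2 at 7.84, 8.79 and 7.69 FPKM, so all 6 knockdown libraries lay below all 3 scramble libraries. On the scale log2(FPKM + 1), used for every difference given here, the knockdown libraries were lower by a log2 change of −1.12 (standard error, SE, 0.0832; limma, adjusted p = 0.000270). The keratin genes *KRT8*, *KRT18* and *KRT19* were at 152 to 296 FPKM and *EPCAM*, another epithelial marker, at 17.3 to 23.4 FPKM. The leukocyte genes *PTPRC* and *CD3E* and the fibroblast gene *LUM* were at 0 in every library. Of 5 leukocyte markers 4 had a mean below 1 FPKM, and their summed level, nearly all of it *CD68*, ran from 18.1 to 19.2 FPKM in scramble, 22.2 to 23.7 with shRNA1 and 26.0 to 26.8 with shRNA2. Its part in the results below was not tested. In bulk RNA, fewer cells of a type and less RNA per cell cannot be told apart.

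In the scramble libraries the core genes spanned a 14.6-fold range per unit of transcript length. *CTNNB1* was at 69.2 ± 0.0884 FPKM (SD, n = 3) and *BCL9L* at 50.6 ± 2.47 FPKM (SD, n = 3). The Dishevelled genes followed, with *DVL1* at 21.4 ± 0.183, *DVL2* at 20.5 ± 0.258 and *DVL3* at 16.5 ± 0.480 FPKM (SD, n = 3). *AXIN1* at 11.4 ± 0.419 and *TCF7L2* at 11.2 ± 0.331 FPKM (SD, n = 3) overlapped. *BCL9* at 9.31 ± 0.294, *GSK3B* at 7.20 ± 0.247 and *APC* at 4.74 ± 0.201 FPKM (SD, n = 3) were the lowest. The ranges of all other neighbours in this order did not overlap. *CTNNB1* also varied least among the scramble libraries, with a coefficient of variation of 0.128%, and *BCL9L* most, with 4.88%. This order rests on 3 libraries. *CTNNB1* had 1.09% with shRNA1 and 2.66% with shRNA2, where *DVL3* had 0.403%.

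**Figure D1:**
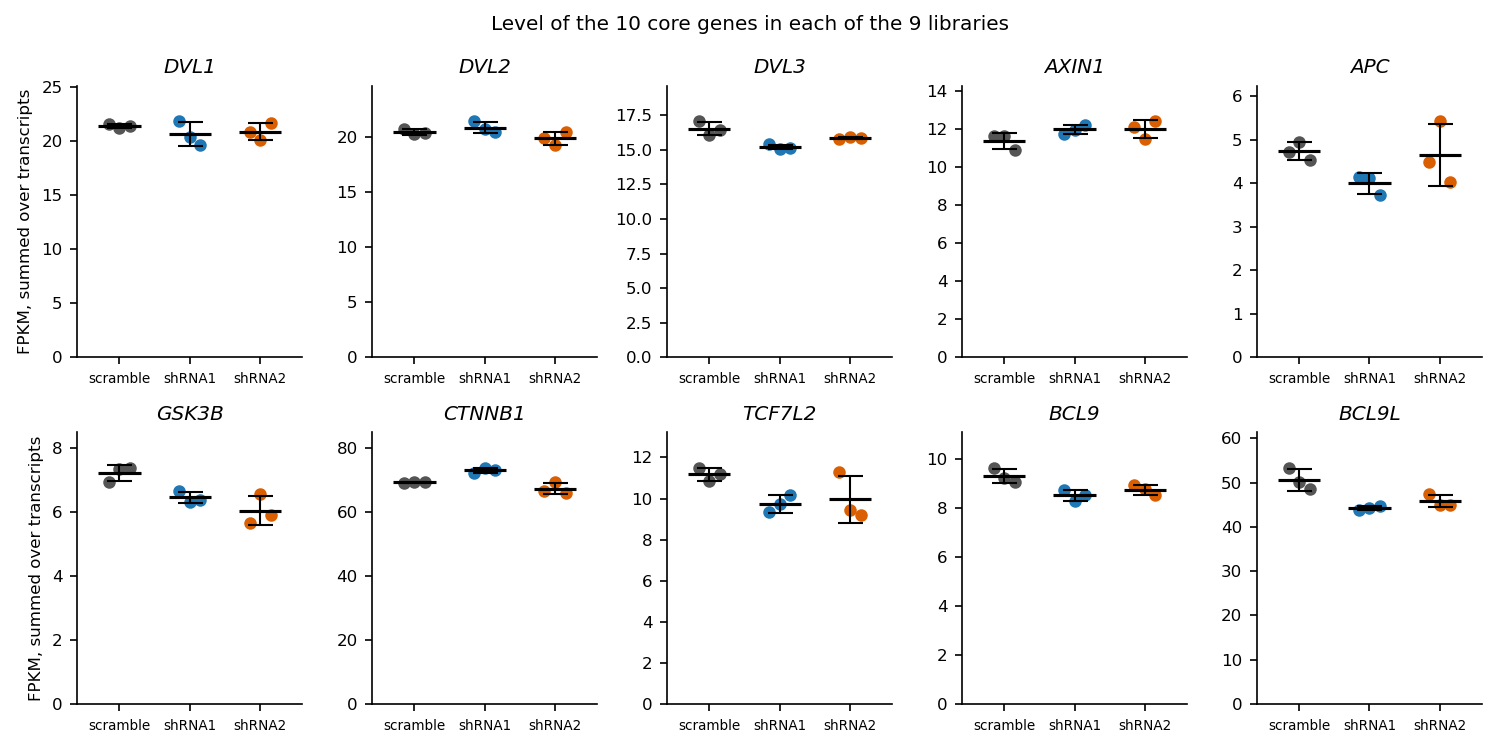
Level of each core gene in each library, as FPKM summed over its RefSeq transcripts on the y axis, by group on the x axis. Points are libraries, wide bars are group means and error bars are SD (n = 3). All axes start at 0, and the 6 knockdown libraries lie below the 3 scramble libraries for *DVL3*, *GSK3B*, *BCL9* and *BCL9L*.

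Within the gene families the balance was uneven except for the Dishevelled genes. *DVL1*, *DVL2* and *DVL3* held 36.6%, 35.1% and 28.3% of the summed Dishevelled level in scramble cells, and the sum was 58.3 ± 0.918 FPKM there, 56.6 ± 1.75 FPKM with shRNA1 and 56.6 ± 1.35 FPKM with shRNA2 (SD, n = 3). *BCL9L* held 84.5% of the level of the *BCL9* pair. *GSK3B* held 10.8% of the level of the GSK3 kinases, the rest being *GSK3A*, whose protein can take its place in the complex. Among the DNA-binding partners *TCF7L2* held 57.1%, *TCF7* 27.7% and *TCF7L1* 15.2%, while *LEF1*, which many other cells use, held 0.0517%. The share of *GSK3B* was 9.86% with shRNA1 and 9.09% with shRNA2, while that of *TCF7L2* stayed between 54.4% and 60.2% over all 9 libraries.

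With *FZD6* knockdown, 3 of the 10 core genes passed the test and all 3 were lower: *BCL9L*, *GSK3B* and *BCL9*. No core gene was higher. Their levels fell by 7.36% (*BCL9*) to 13.4% (*GSK3B*), and none reached 1.2-fold. Over all genes tested, limma with Benjamini-Hochberg adjustment called 21.6% in either direction, 7.23% lower and 14.4% higher. The call of 3 lower in 10 thus stands beside 7.23% of all genes, and the 0 higher beside 14.4%, and no test was made of either count. At an unadjusted p under 0.05, limma had 5 core genes lower and 0 higher, against 12.8% and 22.6% of all genes. The median log2 change of the core genes was −0.09, against 0.03 for all genes tested, and 8 of 10 were below 0, against 41.8% of all genes.

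*BCL9L*, the more abundant of the adaptors that bind beta-catenin in the nucleus, was at 53.3, 50.1 and 48.4 FPKM in scramble. It was at 43.8, 44.2 and 44.8 FPKM with shRNA1 and at 47.4, 45.0 and 45.0 FPKM with shRNA2. The groups did not overlap, and the first shRNA2 library came nearest to the scramble libraries. The log2 change was −0.17 over the 6 knockdown libraries (SE 0.0349, adjusted p = 0.0118 by limma). It was −0.19 with shRNA1 (adjusted p = 0.0132) and −0.14 with shRNA2 (adjusted p = 0.0275), both by limma against the same scramble libraries. The shRNA2 call was lost without the first or second scramble library or the second or the third shRNA2 library (adjusted p = 0.0541 to 0.0802).

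*GSK3B*, the kinase of the destruction complex, was at 6.92, 7.32 and 7.37 FPKM in scramble. It was at 6.65, 6.32 and 6.38 FPKM with shRNA1 and at 5.66, 6.54 and 5.91 FPKM with shRNA2. All 6 knockdown libraries were lower than the lowest scramble library. The log2 change was −0.18 over the knockdown libraries (SE 0.0475, adjusted p = 0.0267 by limma). With shRNA2 it was −0.22 (SE 0.0486, adjusted p = 0.0125 by limma), and this call held in all 23 alternative settings, where the log2 change lay between −0.27 and −0.15. The call over both hairpins was lost without any 1 of the scramble libraries or the third shRNA2 library (adjusted p = 0.0501 to 0.106). With shRNA1 it was −0.14 and missed the threshold (adjusted p = 0.0803 by limma), but the difference between the hairpins was not significant either (−0.08, adjusted p = 0.372 by limma).

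*BCL9*, the less abundant adaptor, was at 9.64, 9.22 and 9.08 FPKM in scramble. It was at 8.75, 8.28 and 8.51 FPKM with shRNA1 and at 8.92, 8.77 and 8.52 FPKM with shRNA2. The groups did not overlap, by a margin of 0.152 FPKM. The log2 change was −0.10 (SE 0.0294, adjusted p = 0.0414 by limma). This call was close to the threshold and was kept in 9 of 23 alternative settings, all with a negative log2 change. It was lost without any 1 of the scramble or shRNA1 libraries or the third shRNA2 library (adjusted p = 0.0602 to 0.170). With shRNA1 the log2 change was −0.12 (adjusted p = 0.0384) and with shRNA2 it was −0.08 (adjusted p = 0.0918), both by limma. The shRNA1 call was kept in 12 of 23 alternative settings. It was lost without any 1 of the scramble or shRNA1 libraries (adjusted p = 0.0555 to 0.127 by limma).

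Among the Dishevelled genes *DVL3* was the only one whose knockdown libraries all lay below scramble. It was at 17.0, 16.1 and 16.4 FPKM in scramble, at 15.4, 15.1 and 15.1 FPKM with shRNA1 and at 15.8, 15.9 and 15.8 FPKM with shRNA2. The call was missed for the 6 libraries together (log2 change −0.09, SE 0.0277, adjusted p = 0.0567 by limma) and made for shRNA1 (−0.11, SE 0.0251, adjusted p = 0.0190 by limma). With shRNA2 the log2 change was −0.06 (adjusted p = 0.127 by limma). Over both hairpins *DVL3* was called in 4 of 23 alternative settings. It passed in the model of 3 groups (adjusted p = 0.0219) and with a filter of 5 FPKM (adjusted p = 0.0419). It also passed with the GC trend removed (adjusted p = 0.0305) and without the second shRNA2 library (adjusted p = 0.0393), all by limma. Without the first scramble, the second shRNA1 or the third shRNA1 library the shRNA1 call was lost (adjusted p = 0.0538 to 0.0685). *DVL1* ran from 21.2 to 21.5 FPKM in scramble and from 19.6 to 21.8 FPKM in knockdown, with a log2 change of −0.04 (SE 0.0350, adjusted p = 0.421 by limma). *DVL2* ran from 20.2 to 20.8 FPKM in scramble and from 19.3 to 21.4 FPKM in knockdown, with a log2 change of −0.01 (SE 0.0315, adjusted p = 0.901 by limma). For *DVL1* and *DVL2* the groups overlapped in every comparison.

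The scaffolds of the destruction complex did not pass the test. *AXIN1* had 11.6, 11.6 and 10.9 FPKM in scramble and 11.5 to 12.4 FPKM in knockdown. Its log2 change was 0.07 with each hairpin and over both (SE 0.0315, adjusted p = 0.148 by limma for both). *APC*, the large scaffold that is lost in many colorectal tumours, had 4.72, 4.94 and 4.54 FPKM in scramble, 4.14, 4.13 and 3.73 FPKM with shRNA1 and 4.49, 5.42 and 4.02 FPKM with shRNA2. The second shRNA2 library was above every scramble library. Over the knockdown libraries the log2 change of *APC* was −0.12 (SE 0.0853, adjusted p = 0.373 by limma), and without that library it was −0.17 (adjusted p = 0.0390 by limma).

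*CTNNB1* was the only core gene that differed between the hairpins. It was at 69.1, 69.2 and 69.3 FPKM in scramble, at 72.1, 73.7 and 73.2 FPKM with shRNA1 and at 66.5, 69.3 and 65.9 FPKM with shRNA2. All shRNA1 libraries lay above scramble, while the shRNA2 libraries lay around or below it. The difference of shRNA2 from shRNA1 was −0.12 (SE 0.0239, adjusted p = 0.0267 by limma), a contrast in which 7.02% of all genes tested were called. Against scramble neither hairpin passed, with a log2 change of 0.08 for shRNA1 (adjusted p = 0.0597) and −0.04 for shRNA2 (adjusted p = 0.241), both by limma. In the 23 alternative settings *CTNNB1* was called higher with shRNA1 in 3 and lower with shRNA2 in 2. The difference between the hairpins kept its direction but lost the call without any 1 of the shRNA1 libraries or the first or the third shRNA2 library (log2 −0.13 to −0.10, adjusted p = 0.0598 to 0.0971). *FZD6* also differed between the hairpins, with a log2 change of −0.25 (adjusted p = 0.0213 by limma). That call was kept in 15 of 23 alternative settings, all with a negative log2 change. It was lost without any 1 of the shRNA1 libraries or the first or the third shRNA2 library (adjusted p = 0.0509 to 0.0865 by limma).

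*TCF7L2*, the main DNA-binding partner here, was at 11.5, 10.8 and 11.2 FPKM in scramble and at 9.33, 9.71 and 10.2 FPKM with shRNA1. With shRNA2 it was at 11.3, 9.44 and 9.18 FPKM, so that the first shRNA2 library lay among the scramble libraries and the other 5 knockdown libraries below them. The log2 change was −0.17 (SE 0.0574, adjusted p = 0.0678 by limma). Without that library it was −0.20 (adjusted p = 0.00986 by limma). *TCF7L2* was thus called only when that library was left out or the GC trend removed.

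**Figure D2:**
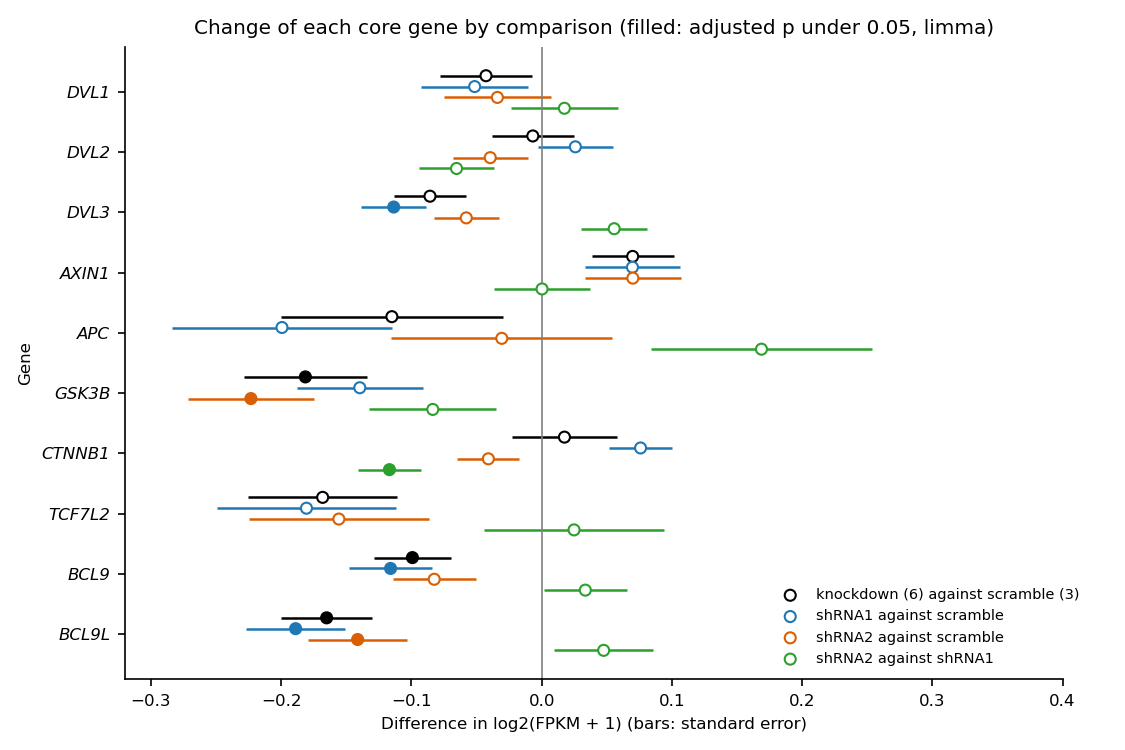
Difference in log2(FPKM + 1) of each core gene (x axis, bars are standard errors) by gene (y axis), for knockdown against scramble, each shRNA against scramble and shRNA2 against shRNA1. Filled points passed an adjusted p of 0.05 by limma: *BCL9L*, *GSK3B* and *BCL9* over both hairpins, *DVL3*, *BCL9* and *BCL9L* with shRNA1, *GSK3B* and *BCL9L* with shRNA2, and *CTNNB1* between the hairpins.

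Taken by hairpin, shRNA1 called *DVL3*, *BCL9* and *BCL9L*, and shRNA2 called *GSK3B* and *BCL9L*, all lower. The background in either direction was 20.0% of all genes with shRNA1 and 27.4% with shRNA2, beside 3 and 2 of 10 core genes. The share of all genes called lower with each hairpin is not given here. These counts of lower genes therefore have no matching background here. In 4 core genes, *DVL3*, *GSK3B*, *BCL9* and *BCL9L*, every knockdown library was lower than every scramble library, and in 0 every one was higher. Over all genes tested these arrangements were found in 9.46% and 16.4%. The study's own criteria ask for 1.2-fold and an unadjusted p below 0.01. Applied here to the log2(FPKM + 1) values of the genes tested, they were met by 0 core genes, against 2.89% of all genes. That share belongs to this re-analysis and is not the study's own count. The largest change of a core gene was under 1.2-fold, while 7.38% of all genes changed by that much in either direction.

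The core genes are long, and the change with knockdown moved with transcript length across all genes. Over 12295 tested genes with a length from GENCODE v29, the Spearman correlation of length with the log2 change was −0.440 for both hairpins together, −0.447 for shRNA1 and −0.369 for shRNA2, given as a description across genes that share the 9 libraries. For shRNA2 against shRNA1 it was 0.0549. The length of a gene is here the mean over its transcripts with a matched GENCODE model, weighted by FPKM, or the longest model where none matched. For *GSK3B* it averages models of 7711 and 1636 bases. The median length was 2659 bases over all genes and 4328 bases over the core genes, and all 10 were longer than the median gene. By this measure the 3 called genes have 10005 (*BCL9L*), 6434 (*GSK3B*) and 6278 (*BCL9*) bases, and *TCF7L2* was the shortest of the core at 2881 bases.

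When the trend in length was removed from each library, 0 core genes passed by limma over both hairpins, against 12.7% of all genes, and 2 (*GSK3B* and *TCF7L2*) were lower and 0 higher at an unadjusted p under 0.05, against 13.9% and 15.5%. *BCL9L* then had a log2 change of −0.02 (adjusted p = 0.785) and *BCL9* of −0.03 (adjusted p = 0.626), close to 0. *GSK3B* went from −0.18 to −0.11 and lost the call (adjusted p = 0.115), and with shRNA2 alone it was still called at −0.15 (adjusted p = 0.0197). *TCF7L2* kept its size, at −0.19 (adjusted p = 0.0616). *CTNNB1* remained lower with shRNA2 than with shRNA1, at −0.11 (adjusted p = 0.00844), and *APC* turned to 0.03 (adjusted p = 0.751), all by limma. Removal of the trend in GC content instead left 5 core genes called, *DVL3* and *TCF7L2* beside the 3 above, against 25.3% of all genes. Whether the length trend arose in the cells or in the preparation of the libraries was not tested.

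**Figure D3:**
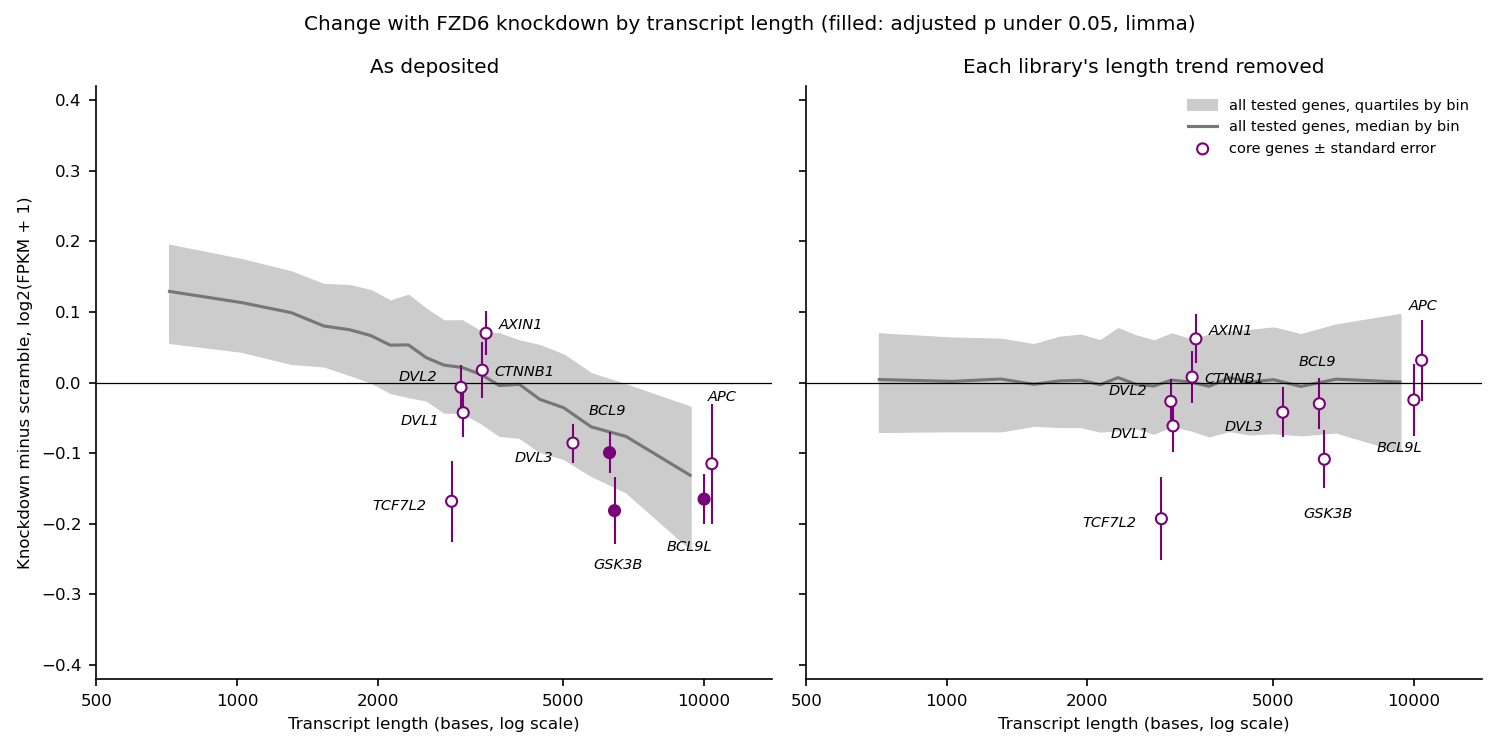
Log2 change with knockdown (y axis) by FPKM-weighted mean transcript length in bases (x axis, log scale). Values are as deposited at the left and with each library's length trend removed at the right. The line and band are the median and quartiles of all tested genes in bins of equal gene number, without the bin of the shortest genes, and points are core genes with standard errors, filled where the adjusted p was under 0.05. *BCL9L* and *BCL9* follow the line at the left and sit near 0 at the right, while *TCF7L2* and *GSK3B* lie below the band in both.

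Sums over transcripts were steadier than the transcripts themselves. The 10 genes have 48 RefSeq entries in the tables, of which 18 had a mean of at least 1 FPKM. *DVL2*, *DVL3*, *BCL9* and *BCL9L* have 1 entry each, *APC* has 15 and *TCF7L2* 17. In scramble cells the coefficient of variation of the gene sums was at most 4.88%, while that of single transcripts reached 76.6% for *TCF7L2*, 27.0% for *GSK3B* and 22.1% for *DVL1*. Cufflinks divides fragments among transcripts that share most of their exons, so the division within a gene is less certain than its sum. Tested one by one, 1 of the 18 transcripts was called, that of *BCL9L* (NM_182557, log2 change −0.17, adjusted p = 0.0435 by limma), against 4.29% of 19780 transcripts.

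**Figure D4:**
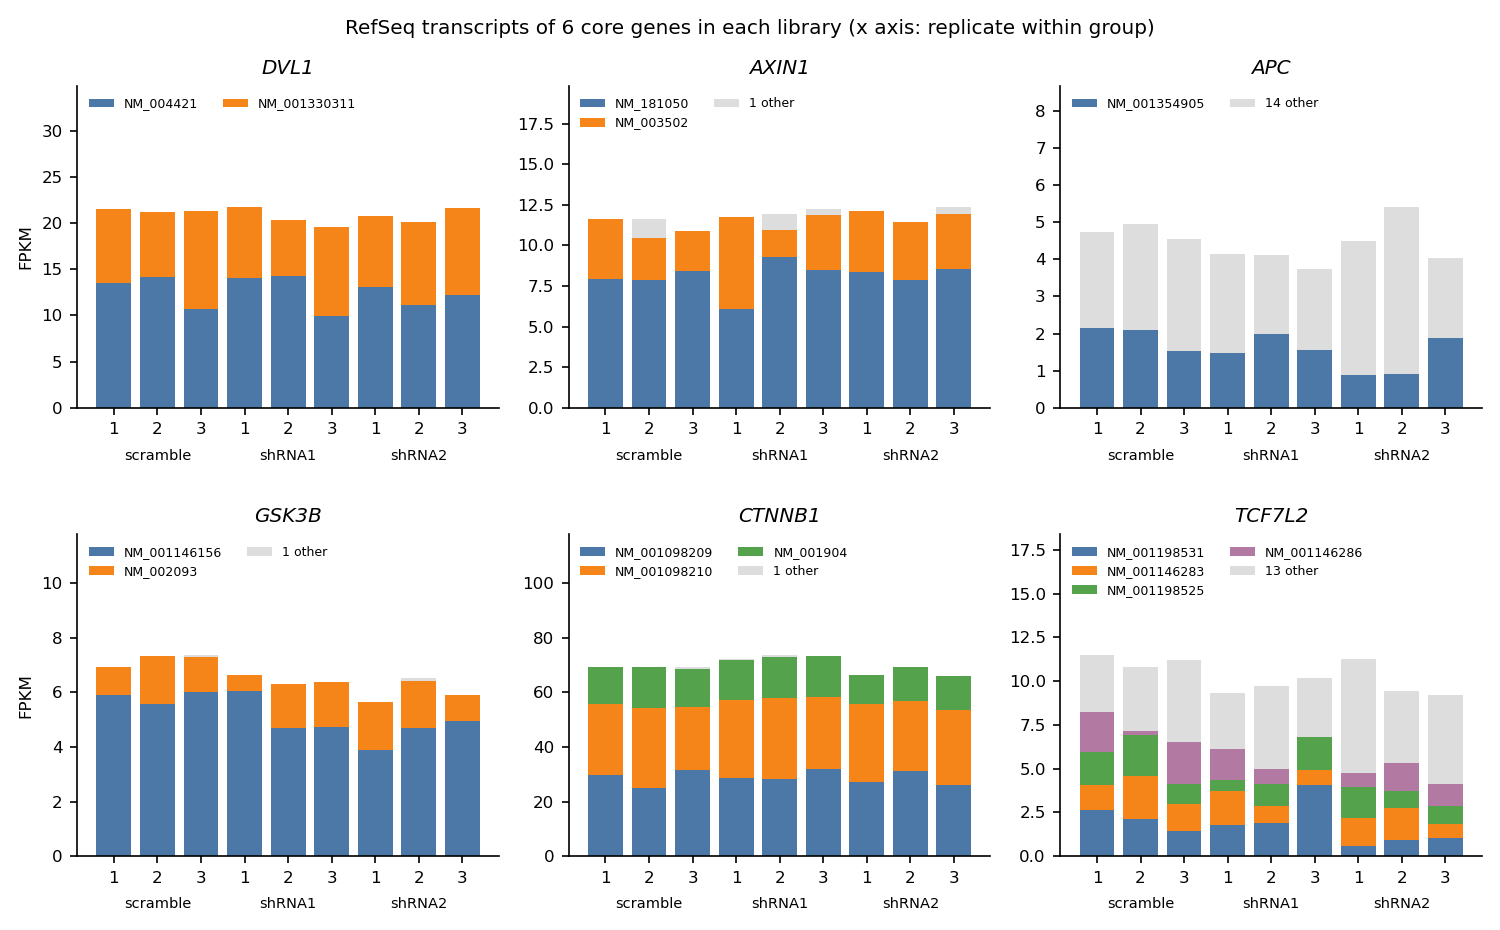
FPKM (y axis) of the RefSeq transcripts of 6 core genes in each library (x axis, replicates 1 to 3 of each group), stacked so that each bar is the gene sum. Colours are transcripts with a mean of at least 1 FPKM and grey is the sum of the others. The heights vary less than the parts, most plainly for *TCF7L2* and *APC*.

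In 3 core genes the main transcripts differ by a stretch of coding sequence, and these stretches are printed here because the split between the transcripts was measured. They were read from GENCODE v29 transcripts on the minus strand of GRCh38 and are written 5′ to 3′ in the sense of the gene. For *GSK3B* it is exon 9 of 12, which adds 13 residues to the kinase (chr3:119866590-119866628). For *AXIN1* it is exon 9 of 11, with 36 residues (chr16:291190-291297), and for *DVL1* it is the part of exon 11 of 15 that encodes 25 residues (chr1:1339287-1339361).
GSK3B, in NM_002093 and absent from NM_001146156: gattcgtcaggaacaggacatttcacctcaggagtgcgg
AXIN1, in NM_003502 and absent from NM_181050: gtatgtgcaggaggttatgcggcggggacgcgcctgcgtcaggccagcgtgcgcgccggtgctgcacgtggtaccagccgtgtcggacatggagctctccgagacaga
DVL1, in NM_001330311 and absent from NM_004421: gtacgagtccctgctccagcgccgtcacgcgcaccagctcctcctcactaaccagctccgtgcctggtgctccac

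The *GSK3B* form with the 39 bases held 18.7% ± 4.60 of the pair in scramble, 20.3% ± 9.67 with shRNA1 and 24.6% ± 7.63 with shRNA2 (SD, n = 3). Single libraries ran from 9.18% to 31.1%, so the groups overlapped. The form without them, which carries most of the level, was at 5.83 ± 0.214 FPKM in scramble, 5.15 ± 0.771 with shRNA1 and 4.52 ± 0.548 with shRNA2 (SD, n = 3). Its log2 change was −0.24 (SE 0.0993, adjusted p = 0.251 by limma), and that of the form with the 39 bases was 0.00 (SE 0.205, adjusted p = 0.995 by limma). The fall of the *GSK3B* sum could therefore not be placed on a form. For *AXIN1* the form with the 108 bases held 26.4% ± 4.67, 30.8% ± 16.6 and 30.3% ± 1.64 in scramble, shRNA1 and shRNA2 (SD, n = 3). For *DVL1* the form without the 75 bases held 59.7% ± 8.82, 61.8% ± 10.1 and 58.2% ± 4.16 in the same order (SD, n = 3). The differences from scramble were smaller than the scramble SD in both genes.

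*CTNNB1* has 3 transcripts above 1 FPKM. NM_001904 was at 13.3 to 15.0 FPKM in scramble, 14.8 to 15.2 FPKM with shRNA1 and 10.9 to 12.4 FPKM with shRNA2. Its shRNA2 libraries were thus below all other libraries, but over the knockdown libraries it was not called (log2 change −0.08, adjusted p = 0.766 by limma). NM_001098209 and NM_001098210 overlapped between all groups. The most abundant transcript of *APC*, NM_001354905, was at 1.53 to 2.16 FPKM in scramble and 0.883 to 1.99 FPKM in knockdown (log2 change −0.28, SE 0.181, adjusted p = 0.472 by limma). The 4 transcripts of *TCF7L2* above 1 FPKM had log2 changes of −0.31 to −0.27, with standard errors of 0.209 to 0.417.

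The exons of 2 core genes share bases with entries of other genes. *BCL9L* shares 3925 bases with *CXCR5* on the opposite strand, which was at 0.0284 FPKM or less in every library. *DVL1* shares 31 bases with *TAS1R3* on the opposite strand, at 0.133 to 0.326 FPKM, and 59 bases with *MIR6808* on its own strand, at 0 in every library. The libraries are stranded, but whether the quantification used strand is not given in the sources used here. For the canonical TCF motif TCAAAG, 0 of 12 promoter windows of 9 core genes held a match on either strand, against 12.9% of 35116 windows of RefSeq (GRCh38.p14). These windows run from 250 bases before to 50 after the start of a gene, and a missing match says nothing of binding elsewhere.

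The other genes of the pathway were described with 3 lists that do not hold the core genes, 67 genes in all, of which 56 were tested. These lists too were chosen with earlier results of these data known. Most of the genes that fell were on the list named nuclear beta-catenin partners, which was not split into activating and repressing genes. Of 22 tested genes on that list 8 were lower and 1 (*CBY1*) was higher, with a median log2 change of −0.08. The lower genes were *EP300*, *CREBBP*, *MED12*, *HIPK2*, *TLE1* (−0.09), *TLE3* (−0.20), *CHD8* (−0.20) and *TBL1X* (−0.15). Those given with values here changed by less than 1.2-fold and are named after their values were seen. With the length trend removed *TLE1* and *CHD8* lost the call (adjusted p = 0.106 and 0.0788 by limma), while *TLE3* and *TBL1X* kept it. *TLE2* (−0.16, adjusted p = 0.0376) and *TLE5* (−0.13, adjusted p = 0.0456) were then called lower, by limma. *CDC73* was called higher (0.11, adjusted p = 0.0497 by limma). These too are named after their values were seen, and 9 of the 22 were called in that setting. What these counts mean for the direction of the pathway was not tested. Of 23 tested destruction complex and ubiquitin ligase genes 1 was lower and 3 were higher, with a median of 0.00. Of 11 tested Dishevelled partners 1 was lower and 0 were higher, with a median of −0.05. In all 10 of 56 were lower and 4 higher, beside the 7.23% and 14.4% of all genes given above.

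By the rule of a call with at least 1.2-fold, 5 of these genes are named. *EP300*, a histone acetyltransferase that beta-catenin recruits, was at 13.6, 13.9 and 12.9 FPKM in scramble, 9.54, 10.2 and 9.97 FPKM with shRNA1 and 10.3, 11.9 and 9.77 FPKM with shRNA2 (log2 change −0.36, SE 0.0605, adjusted p = 0.00492 by limma). Its paralogue *CREBBP* was at 10.2 to 10.7 FPKM in scramble and 7.68 to 8.97 FPKM in knockdown (−0.30, SE 0.0460, adjusted p = 0.00363 by limma). *MED12*, a Mediator subunit, went from 9.76 to 10.5 FPKM in scramble to 6.85 to 7.79 FPKM in knockdown (−0.38, SE 0.0395, adjusted p = 0.000998 by limma). In all of these the knockdown libraries lay below the scramble libraries.

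*HIPK2*, a nuclear kinase, was at 10.2 to 10.8 FPKM in scramble and 7.00 to 8.46 FPKM in knockdown (log2 change −0.36, SE 0.0523, adjusted p = 0.00274 by limma). *ARRB1*, a beta-arrestin that binds Dishevelled, was at 10.5, 10.8 and 10.5 FPKM in scramble, 7.75, 7.96 and 7.84 FPKM with shRNA1 and 8.07, 8.25 and 7.64 FPKM with shRNA2 (log2 change −0.38, SE 0.0273, adjusted p = 0.000270 by limma). These groups did not overlap either. With the length trend removed all 5 stayed called, *ARRB1* at −0.44, *MED12* at −0.30, *EP300* at −0.23, *HIPK2* at −0.19 and *CREBBP* at −0.18.

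In the destruction complex list the higher genes were *PPP2CA*, the catalytic subunit of a phosphatase, and *SKP1* and *RBX1*, subunits of the ubiquitin ligase that takes up beta-catenin. The gene called lower was *TNKS*, an enzyme that turns over AXIN proteins. These 4 and *CBY1* changed by less than 1.2-fold and are named after their values were seen. *PPP2CA* had a log2 change of 0.12, *SKP1* of 0.13, *RBX1* of 0.17, *TNKS* of −0.18 and *CBY1* of 0.20. With the length trend removed *PPP2CA* alone of them was called, at 0.15 (adjusted p = 0.0109 by limma). *FBXW11*, which recognises marked beta-catenin for the same ligase and is likewise named after its values were seen, was at 14.0, 14.5 and 14.1 FPKM in scramble, 12.7, 13.3 and 12.5 FPKM with shRNA1 and 9.29, 9.82 and 9.01 FPKM with shRNA2. All knockdown libraries lay below scramble and the shRNA2 libraries lowest. It was not called over both hairpins (log2 change −0.34, adjusted p = 0.0836) but was with each, at −0.13 for shRNA1 (adjusted p = 0.0381) and −0.55 for shRNA2 (adjusted p = 0.000176), and between them (−0.42, adjusted p = 0.000696), all by limma. The shRNA1 call was lost without any 1 of the scramble libraries, the first or the third shRNA1 library or the first shRNA2 library (adjusted p = 0.0552 to 0.127 by limma), while the shRNA2 call and the difference between the hairpins held in all 23 alternative settings. Over both hairpins *FBXW11* was called in 2 of 23, the model of 3 groups (adjusted p = 0.000665) and protein-coding accessions only (adjusted p = 0.0490), both by limma. *AXIN2*, a feedback gene of canonical signalling, was at 0.132 to 0.359 FPKM, too low to be tested.

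**Figure D5:**
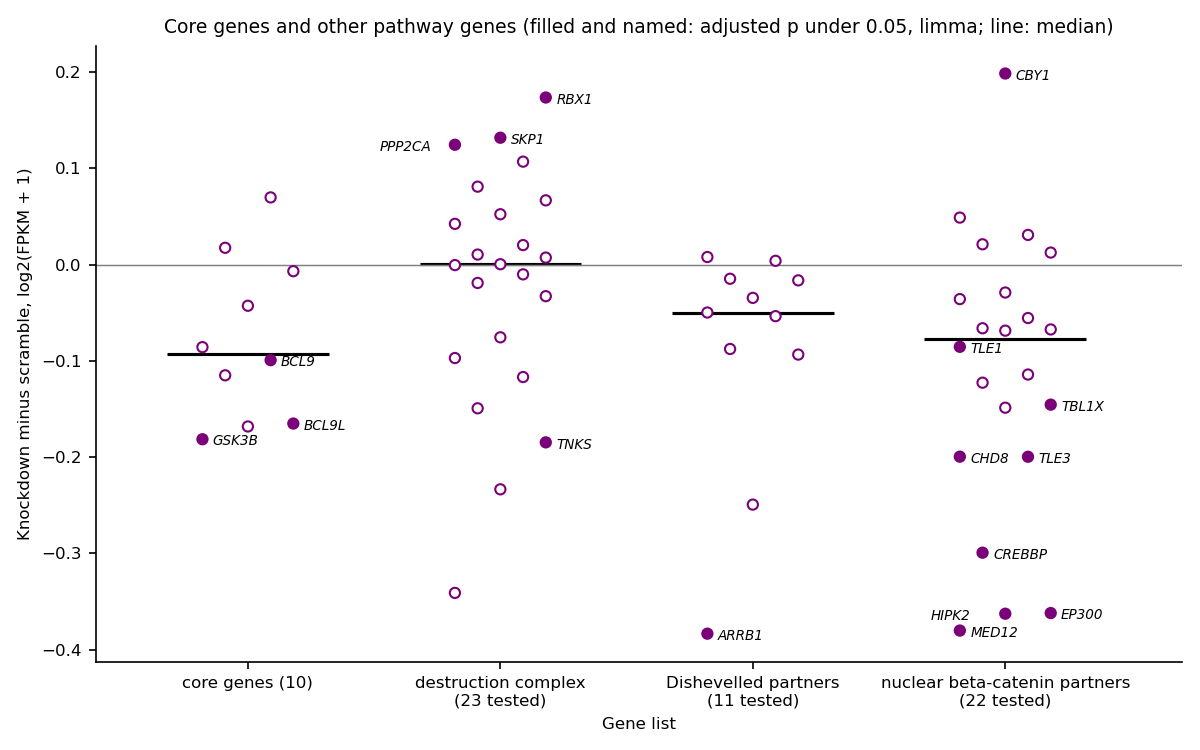
Log2 change with knockdown (y axis) of the 10 core genes and of the tested genes of 3 pathway lists (x axis). Points are genes, black lines are medians, and filled, named points had an adjusted p under 0.05 by limma. The lowest filled points are those of *ARRB1*, *MED12*, *HIPK2*, *EP300* and *CREBBP*, below every core gene.

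The genes with the profile nearest to a called core gene were found by the root mean square difference of log2(FPKM + 1), centred on each gene's mean over the 9 libraries. For *BCL9L* these were *PNPLA6* (0.0193) and *NBEAL2* (0.0218). For *GSK3B* they were *PLCB1* (0.0201) and *AHCYL2* (0.0304), and for *BCL9* they were *NKX2-1* (0.0189) and *ST3GAL5* (0.0199).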

How the data were processed

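Reads of stranded mRNA libraries were mapped by the authors with STAR, and Cufflinks gave them FPKM. The deposited tables give FPKM with confidence bounds for each RefSeq entry. The methods name mm10, but the entries are human and the processing notes name hg38. Versions are not given in the sources used here. Accessions were matched to genes of a RefSeq table (GRCh38.p14). Of 73240, 595 did not match and held 0.387% to 0.431% of a library's FPKM. FPKM were summed per gene, and 42 genes with an unusable entry were left out.

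Genes averaging 1 FPKM or more were tested as log2(FPKM + 1) with limma 3.58.1 in R 4.3.3, with a mean-variance trend, Benjamini-Hochberg adjustment and a threshold of 0.05. Knockdown (n = 6) was compared with scramble (n = 3), and each shRNA in a model of 3 groups. The first of these fits took both hairpins as 1 group, so its 6 libraries are not replicates of a single hairpin. The tables hold no counts. The confidence bounds gave an estimated depth of 32.6 to 40.8 M fragments per library, and bounds of ±3.33% to ±4.55% for *DVL2*, *DVL3* and *BCL9*, for counting error only. Those of *BCL9L*, ±4.36% to ±4.42%, were wider than its level and length would give. The fits were tested on simulated data. Some marker genes of the cell line are not reported here.

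The members and lists were chosen with earlier results of these data known. Named genes are the members, their transcripts above 1 FPKM, overlapping entries, *FZD6*, list genes called with at least 1.2-fold, and the 2 nearest profiles of the 3 members with the lowest adjusted p. Alternatives were pseudocounts of 0.1 and 0.01, no filter or one of 5 FPKM, centring, quantile normalization, length or GC trends removed by lowess (span 0.3, GENCODE v29), a replicate block, primary chromosomes, protein-coding accessions, leaving out each library, other groupings, the study's criteria and, chosen after seeing the data, no mean-variance trend. Figures were made with Python 3.11.15 and matplotlib 3.10.9.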

Additional observations from a re-analysis of the deposited data

Results flagged for a closer look

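The level of *BCL9L* in the first shRNA2 library, 47.4 FPKM, stood apart above the other 5 knockdown libraries. Its gap to the nearest of them was 0.656 of the range of the 6 libraries, past the limit for a group of that size. Of 11 measures examined in this way 1 was marked, and chance marks about 1 in 20. Without that library *BCL9L* was still called.

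The level of *CTNNB1* differed between the hairpins by −0.117 on the log2 scale, shRNA2 minus shRNA1 (adjusted p = 0.0267 by limma). All 3 shRNA1 libraries were above all scramble libraries and 2 of 3 shRNA2 libraries were below them.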

How the results depend on the processing

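Over both hairpins 3 became 0 with the length trend removed, with or without the replicate block, 0 by the study's criteria, 1 with no filter and 5 with the GC trend removed. The model of 3 groups or a filter of 5 FPKM gave 4, with *DVL3* added. A pseudocount of 0.01, median centring, quantile normalization or protein-coding accessions only gave 2. With shRNA1 the 3 became 0 with the length trend removed, also with the block, 5 with the GC trend removed and 7 (6 lower, 1 higher) when the 6 libraries compared were fitted alone. With shRNA2 the 2 became 1 with no filter, with the length trend removed, also with the block, and in the 6 libraries alone, and 4 with the GC trend removed. Between the hairpins the 1 became 0 with quantile normalization and in the 6 libraries alone. The 14 list genes became 8 with no filter, 9 with block and length trend, and 5 by the study's criteria. The 2703 genes in all became 1790 with no filter, 1563 with the length trend removed and 1239 with the block added to that. They became 361 by the study's criteria as applied here, which is not the study's own count. The 1 transcript called became 0 with no filter, median centring, the length trend removed, the replicate block, both, or no mean-variance trend.

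Leaving out 1 library at a time gave 1 to 5 core genes over both hairpins, 1 to 6 with shRNA1, 1 to 3 with shRNA2 and 0 to 1 between them, 7 to 16 list genes, 1231 to 3359 genes in all and 0 to 1 transcripts.

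Directions turned only in changes that were not called. Over both hairpins *DVL2* ran from −0.0207 to 0.00807 as single libraries were left out, *APC* became 0.0315 with the length trend removed, with or without the block, and *CTNNB1* became −0.0278 with quantile normalization and −0.0145 with the GC trend removed. With shRNA1 *DVL2* became −0.00465 with quantile normalization. With shRNA2 *APC* became 0.102 with the length trend removed, with or without the block, and ran from −0.127 to 0.0497 without single libraries. Between the hairpins the ranges without single libraries were −0.0149 to 0.0567 for *DVL1*, −0.0224 to 0.0302 for *AXIN1* and −0.0589 to 0.0758 for *TCF7L2*.

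Replicate numbers did not pair the libraries: same-numbered libraries had correlations of deviations of −0.071 to 0.111, others −0.123 to 0.184. The replicate block changed no count of core genes called by more than 1.5 times. No cause of these changes was tested. FPKM without counts and 3 libraries a group limit all values.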
